A study of Homo sapiens with 4 samples.

Results

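The regions described here are peaks of a YTHDF2 immunoprecipitation of RNA that the deposited annotation placed between genes, more than 50 kb from the nearest transcription start site. They were chosen from 1 deposited peak list by position alone: a chromosome from 1 to 22 or X, the annotation Distal Intergenic, and an absolute distance to the start site above 50 kb. The rule took 800 of 14858 peaks, or 5.38% of the list. Another 924 intergenic peaks of the same chromosomes lay within 50 kb and serve as the closest comparison. The list came from HCCLM3, a metastatic human hepatocellular carcinoma line, with 2 libraries of RNA immunoprecipitated with YTHDF2 and 2 of input RNA, all from cells labelled WT. No control pulldown was among them, so a peak shows more immunoprecipitated (RIP) fragments than the caller's background and not binding by itself. The list holds 1 value per peak for all libraries together. No spread between replicates and no library depth can therefore be given, and peaks of 1 list are not replicates of each other, so no test was made between groups of peaks. Intervals below are exact Clopper-Pearson intervals at 95% and cover counting error only.

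YTHDF2 is a cytosolic protein that recognises N6-methyladenosine in RNA and brings the CCR4-NOT deadenylase to it. Its usual partners are spliced mRNAs, and sequence far from genes is not where such RNA comes from. Peaks there can lie in long non-coding RNAs (lncRNAs) that an annotation leaves out, in retrocopies of mRNAs, which are pseudogenes made by reverse transcription of a spliced mRNA, or in repeated sequence such as the satellite DNA beside centromeres. Reads from a retrocopy and from its parent mRNA, or from copies of a repeat, cannot be told apart where their sequences are the same.

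Few of these regions overlapped a promoter window of the newer RefSeq annotation, and they are the ones for which sequence was at hand. RefSeq promoter windows of build GRCh38.p14, running from 250 bases before to 50 bases after a gene's start, overlapped 4 of the 800 peaks. In 3 of them the window also held the peak's summit, and these windows are shown 5′ to 3′ on the gene's strand, with the bases inside the peak in capitals. All belong to uncharacterised genes, and their peaks were weak, with a fold of 2.38 over 3 RIP fragments and a −log10 q of 0. The peaks at LOC124900877 and LOC124901719 lay before the gene's start and did not reach it, and that at LOC102723670 covered it.

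LOC124900877, chr4:186840769-186841068, minus strand: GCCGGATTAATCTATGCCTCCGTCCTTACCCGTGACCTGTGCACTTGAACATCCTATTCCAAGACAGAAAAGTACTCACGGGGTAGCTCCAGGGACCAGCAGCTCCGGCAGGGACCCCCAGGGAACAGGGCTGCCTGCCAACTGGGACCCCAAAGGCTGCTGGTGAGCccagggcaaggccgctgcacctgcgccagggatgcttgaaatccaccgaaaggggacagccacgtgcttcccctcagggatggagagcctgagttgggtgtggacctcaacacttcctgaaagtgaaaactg

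LOC124901719, chr7:106217127-106217426, minus strand: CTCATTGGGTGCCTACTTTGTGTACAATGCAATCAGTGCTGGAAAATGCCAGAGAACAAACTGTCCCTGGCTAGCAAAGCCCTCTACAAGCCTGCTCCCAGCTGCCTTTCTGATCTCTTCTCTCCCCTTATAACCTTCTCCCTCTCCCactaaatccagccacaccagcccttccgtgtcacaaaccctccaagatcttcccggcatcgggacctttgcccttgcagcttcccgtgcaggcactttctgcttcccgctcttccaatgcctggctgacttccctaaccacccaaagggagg

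LOC102723670, chr14:55957931-55958230, plus strand: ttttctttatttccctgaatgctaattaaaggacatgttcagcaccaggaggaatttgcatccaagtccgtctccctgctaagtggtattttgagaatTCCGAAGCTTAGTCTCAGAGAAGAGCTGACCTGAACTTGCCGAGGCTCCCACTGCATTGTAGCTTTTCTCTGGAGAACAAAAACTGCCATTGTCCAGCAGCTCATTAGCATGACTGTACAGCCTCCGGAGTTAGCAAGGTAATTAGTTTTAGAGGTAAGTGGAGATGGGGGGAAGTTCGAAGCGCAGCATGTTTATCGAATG

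GGACT, a common context of N6-methyladenosine, was searched on both strands. It was on the gene's strand in none of the 3 windows, and its only match, in LOC102723670, was on the opposite strand and outside the peak. Of all 35116 RefSeq promoter windows, 44.2% held it on either strand. CATTCC, which spans adjoining units of a pericentromeric satellite repeat, was in none of the 3 windows and in 14% of all windows. A run of 10 adenines or thymines was in none of the 3 and in 2.95% of all. A match describes these letters and is not a site. The fourth overlap was with the window of LOC105373150 on chromosome X, where the summit lay outside the window.

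Most of the far intergenic peaks were weak. Of the 800 peaks, 133 had a q, the p adjusted by the peak caller, of 0.01 or less, which is 16.6% (14.1 to 19.4), against 37.3% of the whole list and 18% (15.5 to 20.6) of intergenic peaks within 50 kb. At a q of 0.05 or less the numbers were 176 peaks or 22% (19.2 to 25), against 44.7% of the whole list and 24.4% of intergenic peaks within 50 kb. A −log10 q of 0 was given to 273 peaks, or 34.1%, against 23.2% of the whole list. The 2 intergenic groups thus had overlapping intervals, and both lay far under the list as a whole.

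The number of RIP fragments at a summit and its background, which is the scaled input or the genome-wide level, were recovered from the fold and p of each peak, which, like q, are the authors' own values. The far intergenic peaks had a median of 3 fragments, with quartiles of 3 and 6 and a range of 2 to 260. The median was 4 among intergenic peaks within 50 kb and 12 in the whole list. A total of 545 far intergenic peaks (68.1%) rested on 4 or fewer fragments, against 34.2% of the whole list. Exactly 3 fragments over a background of 0.533, the lowest in the list, gave 182 of the peaks (22.8%) the same fold of 2.61. Another 91 peaks rested on 3 fragments over 0.68, with a fold of 2.38. The smallest width in the list, 315 bp, was that of 408 far intergenic peaks (51.0%), against 29.6% of the whole list.

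The median fold was 2.61, with quartiles of 2.38 and 3.04 and a range of 1.29 to 11.7. It was 2.61 among intergenic peaks within 50 kb and 2.41 in the whole list. A fold of 4 or more was reached by 80 far intergenic peaks (10%), against 7.12% of the whole list. The list's threshold asks a higher fold of a peak with few fragments, so these medians cannot be told apart from the difference in fragments. Only 78 of the far intergenic peaks (9.75%) had 20 or more fragments, against 43.9% of the whole list.

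**Figure D1:**
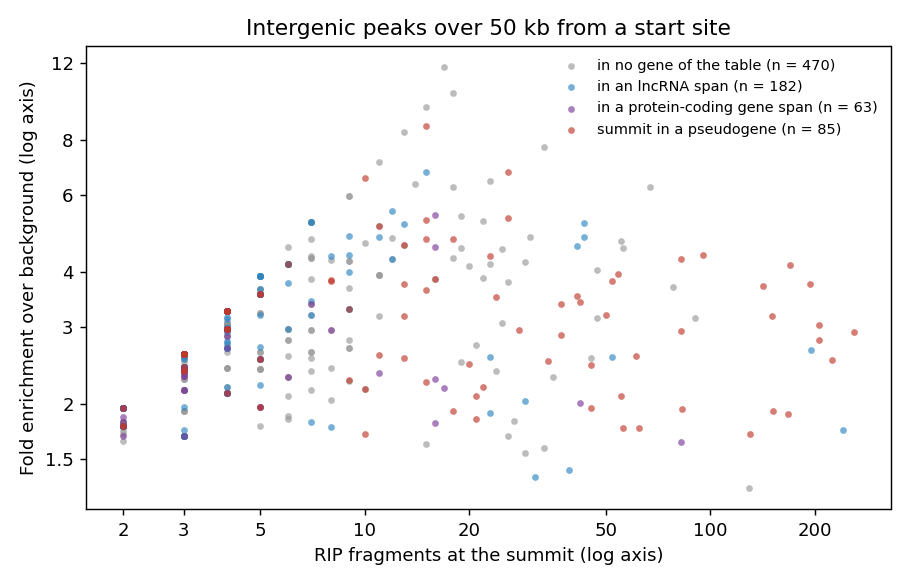
Fold enrichment over background (vertical, log axis) against RIP fragments at the summit (horizontal, log axis) for the 800 far intergenic peaks, 1 point per peak, coloured by the gene of the RefSeq table that holds the summit; points with equal values cover each other. Most points stand in columns at 2 to 4 fragments, and 11 of the 14 peaks with 100 or more fragments lay in pseudogenes.

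Most of the 10 strongest of these peaks lay in retrocopies of mRNAs. Of the 10 peaks with the highest −log10 q, 8 had their summit in a pseudogene of the RefSeq table, and 7 of those pseudogenes were copies of ribosomal protein mRNAs. Among the 20 highest, 10 lay in pseudogenes. The peak in RPS27P4, a copy of the mRNA of the small-subunit protein RPS27, led with a −log10 q of 46.8. It lay on chromosome 3 (40761689 to 40762055, hg38) and had 194 RIP fragments over a background of 51.0, a fold of 3.75. The deposited annotation named ZNF621 for it, whose start site is 236729 bp away.

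RPL15P3, a copy of the mRNA of the large-subunit protein RPL15, followed on chromosome 6 (12514264 to 12515013) with a fold of 4.16 over 170 fragments and a −log10 q of 46.5. RPLP0P9, a copy of the ribosomal stalk protein RPLP0, held the peak with the most fragments of all 800, which was 260 on chromosome 5 (166382507 to 166382870), with a fold of 2.92. RPS3AP6 on chromosome 15 had a fold of 3.03 over 206 fragments. RPSAP19, on chromosome 1, copies the laminin receptor and small-subunit protein RPSA, and its peak had a fold of 3.73 (3.725 as deposited) over 142 fragments. RPL13AP25 on chromosome 13 had 2.81-fold over 206 fragments, and RPL3P4 on chromosome 14 had 2.53-fold over 225. PPIAP22, on chromosome 21, copies the proline isomerase PPIA and had 3.17-fold over 151 fragments. These 8 peaks had backgrounds between 37.4 and 88.4, far above the median of 0.68 of the 800 peaks.

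In all, 85 of the 800 summits (10.6%, 8.58 to 13.0) lay in 77 different pseudogenes. The share was 13.3% (11.2 to 15.7) of intergenic peaks within 50 kb and 4.32% of all listed peaks on these chromosomes. Of the 85, 47 had a q of 0.01 or less, which is 55.3% (44.1 to 66.1), against 12% (9.73 to 14.6) of the other far intergenic peaks. Among peaks in pseudogenes the share was 40.7% of 123 intergenic ones within 50 kb and 42% of all 626 listed ones. The median of the 85 was 15 fragments and 2.94-fold. They made up 35.3% (27.3 to 44.1) of the 133 peaks at that q, 38 of the 78 with 20 or more fragments and 11 of the 14 with 100 or more. Within 50 kb, pseudogenes held 50 of the 166 intergenic peaks at that q. They held 43 of the 110 with 20 or more fragments there and 11 of the 19 with 100 or more. Of the 29 far intergenic peaks with a background of 20 or more, 19 were in pseudogenes. The pseudogenes of the 85 peaks had a median length of 1185 bp, and those of 72 peaks were under 3 kb.

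The names of the pseudogenes gave a protein-coding parent for 71 of the 85 peaks, 62 parents in all. Of these peaks, 23 belonged to parents encoding cytosolic ribosomal proteins, with a median of 20 fragments and 14 with a q of 0.01 or less. The other 48 had a median of 14 fragments, and 23 had such a q. Among them were DNAJB6P1, a copy of an HSP40 chaperone mRNA (chromosome 11, 4.37-fold over 95 fragments), and EIF4HP1, a copy of the mRNA of an initiation factor that aids EIF4A (chromosome 7, 4.29-fold over 82). RAC1P2, a copy of the small GTPase RAC1, had 2.94-fold over 82 fragments. HNRNPA1P4, a copy of a splicing regulator, had 6.75-fold over 26 fragments. PTMAP10, a copy of the prothymosin alpha mRNA, had 8.62-fold over 15 fragments.

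The parent gene itself held a listed peak for 54 of the 71 peaks, and in 51 cases that peak's q was at most 0.01. Such a parent peak went with 28 of the 37 copy peaks with a q of 0.01 or less and 23 of the 34 others. The share of all protein-coding genes with such a peak was not counted. These numbers therefore do not tie a copy's peak to its parent's. The parents RPS27, RPL3 and DNAJB6 held none, although their copies were among the strongest far intergenic peaks. RPL15P3 had a fold of 4.16 over 170 fragments, against 2.04 over 228 fragments for its parent RPL15. Both the copy and its parent had a q of 0.01 or less in 28 pairs. In these pairs the copy's peak had a median fold of 3.41, against 2.48 for the parent's peak of highest −log10 q, and a median of 47.5 fragments, against 162. The copy had the higher fold in 21 of the 28 pairs, and 13 pairs differed by at most 1.5 times. RPS3AP6 (3.03-fold) and its parent RPS3A (3.53-fold) were such a pair, as were PPIAP22 (3.17-fold) and PPIA (3.72-fold). Pairs were counted per peak of a copy, so the same parent peak could recur. The peaks of RPSA, BZW1 and PTMA each stood in several pairs, always with the copy's fold higher. The 28 pairs are thus not independent. Pairs were limited to peaks in the list, and a copy with few fragments needs a higher fold to be listed. The labels do not say how reads that match several copies were placed, and the part of this in these peaks was not tested.

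**Figure D2:**
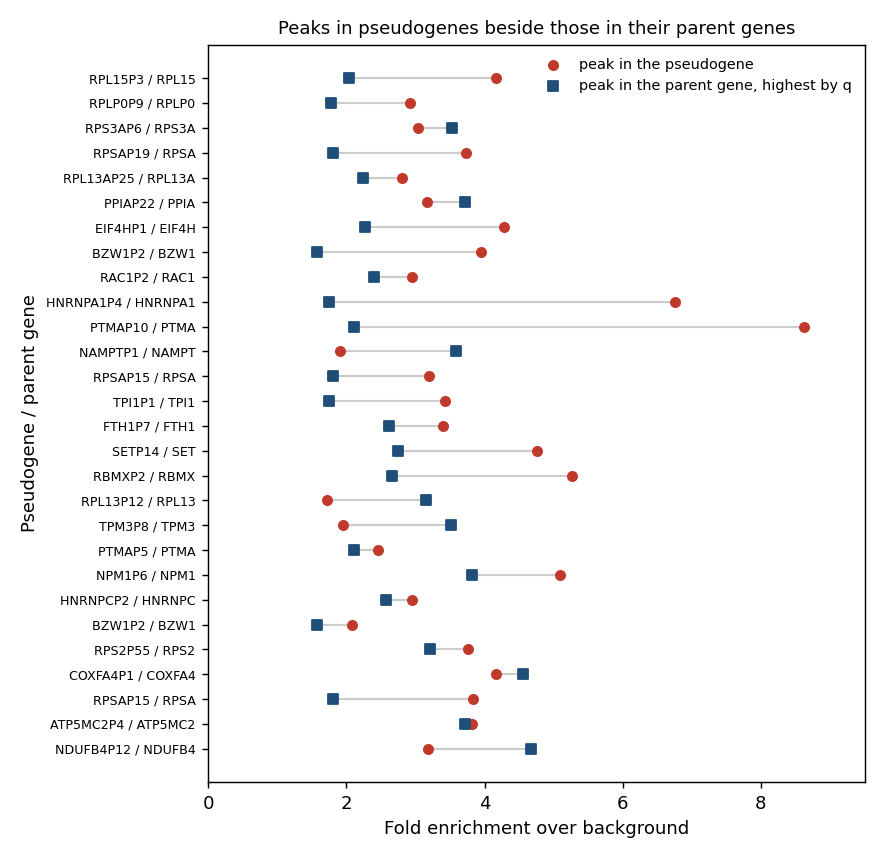
Fold enrichment over background (horizontal) of 28 far intergenic peaks in pseudogenes (red circles) and of the peak with the highest −log10 q in the parent gene (blue squares), both with a q of 0.01 or less, in order of the −log10 q of the pseudogene's peak from the top. The circle lies right of the square in 21 of the 28 pairs, and PTMAP10 has the highest fold, 8.62. The parent peaks of RPSA, BZW1 and PTMA are shown repeatedly.

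Pseudogenes without a named parent held other strong peaks. RBM8B, listed as a pseudogene on chromosome 14, had 3.83-fold over 52 fragments in the stronger of its peaks. MTRNR2L12, a nuclear copy of a mitochondrial ribosomal RNA stretch on chromosome 3, had 5.32-fold over 26 fragments. A group of 3 pseudogenes with neighbouring gene numbers lay within 5 Mb of the longest gene-free stretch of chromosome 20 or 22. These were LOC110467538 (chromosome 20, 3.52-fold over 41 fragments), LOC110467535 (chromosome 20, 4.77-fold over 15) and LOC110467534 (chromosome 22, 3.86-fold over 16), with lengths of 1860, 1853 and 1849 bp.

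**Figure D3:**
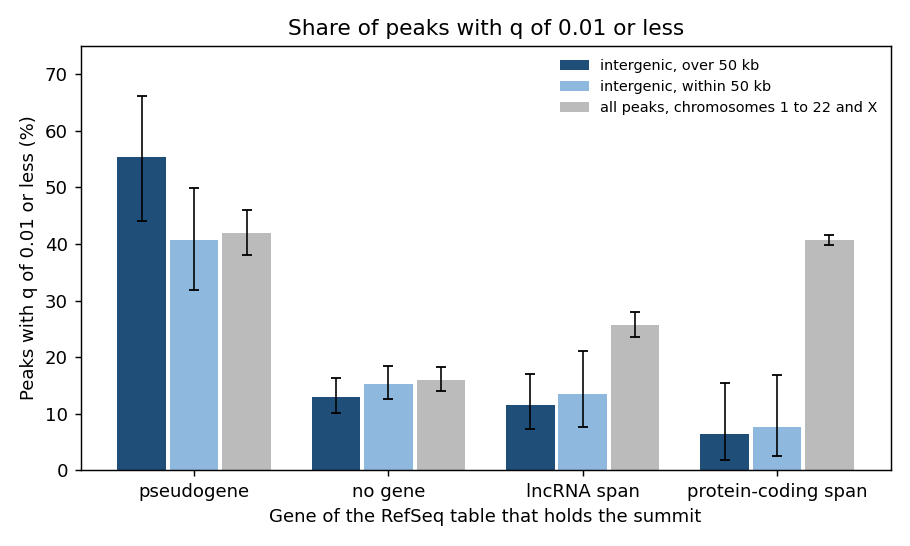
Share of peaks with a q of 0.01 or less (vertical, percent) by the gene of the RefSeq table that holds the summit, for intergenic peaks over 50 kb from a start site (dark), those within 50 kb (light) and all listed peaks of chromosomes 1 to 22 and X (grey), with exact 95% intervals as error bars. Among far intergenic peaks the share was 55.3% in pseudogenes and 13.0% in no gene.

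Spans of lncRNA genes held 182 of the 800 summits, or 22.8% (19.9 to 25.8), against 12.1% (10.1 to 14.4) of the intergenic peaks within 50 kb. Their median was 3 fragments, and 21 (11.5%, 7.29 to 17.1) had a q of at most 0.01. That share was 13.4% of the 112 lncRNA peaks among intergenic peaks within 50 kb, with an overlapping interval (7.69 to 21.1), and 25.7% of all 1474 listed lncRNA peaks. They fell in 134 different lncRNAs. LINC02842 on chromosome 8 held the strongest, with 2.66-fold over 195 fragments at 61808243 to 61808679. LOC124905233 on chromosome X had 5.19-fold over 43 fragments, LOC105371308 on chromosome 16 had 4.8-fold over 43, and LINC03061 on chromosome 13 had 4.6-fold over 41. The LOC105371308 peak lies 1361058 bp from the start site of CDH8, the gene named for it. LINC03061, where the deposited annotation names MYO16-AS1, held 4 peaks with 23 to 41 fragments each, and 2 of them had a q of 0.01 or less.

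Protein-coding spans of the RefSeq table held 63 summits in 34 genes, with a median of 3 fragments, and 4 (6.35%, 1.76 to 15.5) had a q of at most 0.01. That share was 7.58% (2.51 to 16.8) of 66 such intergenic peaks within 50 kb and 40.6% of all listed peaks in protein-coding spans. The highest −log10 q was 6.57 in the span of the zinc finger gene ZNF91 on chromosome 19 (5.41-fold over 16 fragments). GALNT13, a glycosyltransferase gene on chromosome 2, held 10 of these peaks and MGST1, a microsomal glutathione transferase on chromosome 12, held 7, none with a q of 0.01 or less. The deposited annotation classed all of them as intergenic, so its gene models and those of the table differ there.

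The remaining 470 summits, 58.8%, lay in no gene of the table, against 67.1% of intergenic peaks within 50 kb and 8.36% of all listed peaks. Of the 470, 61 (13.0%, 10.1 to 16.4) had a q of at most 0.01, against 15.3% (12.6 to 18.4) of such peaks within 50 kb and 16% (14 to 18.2) of such peaks in the whole list. The highest −log10 q here, 28.4, was on chromosome 8 (114029379 to 114029718), 592440 bp from the start site of CSMD3. That peak had 6.27-fold over 67 fragments and a background of 9.85. The 3 highest folds of all 800 peaks were also found in no gene. A peak on chromosome 4 (49261564 to 49261900) had the highest of them, 11.7, over 17 fragments at the lowest background, 0.533. It lay 328078 bp from the longest gene-free stretch of that chromosome, which spans its centromere.

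Next by fold were a peak on chromosome 18 (60014431 to 60014856), 114435 bp from the start site of PMAIP1, with 10.2-fold over 18 fragments, and a peak on chromosome 1 (242975228 to 242975640) with 9.52-fold over 15. On chromosome 2 a peak at 138286864 to 138287216 had 8.33-fold over 13 fragments. On chromosome 10 a peak at 45072828 to 45073165, near ZNF22, had 7.73-fold over 33. On chromosome 3 a peak at 166690183 to 166690512 had 7.14-fold over 11. Of the 10 highest folds among peaks at a q of at most 0.01, 6 lay in no gene, 3 in pseudogenes and the last in the lncRNA LOC105373602 on chromosome 2 (6.78-fold over 15 fragments). All 10 rested on 10 to 33 fragments, so high fold and high fragment numbers fell on different peaks.

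The share of peaks with a q of 0.01 or less had overlapping intervals at all distances beyond 50 kb. It was 16.9% (12.9 to 21.6) of 313 peaks at 50 to 100 kb, 20.3% (15.2 to 26.2) of 222 at 100 to 200 kb, 15.5% (10.5 to 21.8) of 174 at 200 to 500 kb, and 8.79% (3.87 to 16.6) of 91 peaks beyond. The median distance was 127 kb and the largest 1365 kb. Start sites lay on either side, with 403 peaks at negative and 397 at positive distances. The nearest start site belonged to a protein-coding gene for 424 of the 800 peaks, to an lncRNA for 251, to a transcribed pseudogene for 87 and to a miRNA for 34. Of 495 such genes, 364 were named for 1 peak. Near the 50 kb limit, the 5 peaks just beyond it had folds of 1.96 to 3.26 with 2 to 4 fragments, and the 5 just short of it had folds of 2.15 to 3.80 with 3 to 8.

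The peaks were unevenly spread over the chromosomes. Chromosome 2 held 123 of the 800, or 15.4%, against 7.4% of all listed peaks on chromosomes 1 to 22 and X. Chromosome 4 followed with 60 and chromosome 8 with 57. Chromosome 13 had 26 far intergenic peaks per 227 listed peaks (11.5 per 100), and chromosome 2 had 11.5 per 100. Of the 123 on chromosome 2, 44 lay within 2192 kb (92338612 to 94530430), with a median of 3 fragments. That span held 60 of the chromosome's 1074 listed peaks. The gene-dense chromosomes 17 and 19 had 0.907 and 0.880 per 100.

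Of the 777 gaps between neighbouring far intergenic peaks, 359 (46.2%) were at most 500 kb, and 126 were at most 10 kb. A cluster was taken as 5 or more such peaks with neighbouring summits at most 500 kb apart. There were 23 clusters on 12 chromosomes, and they held 208 peaks, 26% (23 to 29.2). Clustered peaks were weak: 13 of the 208 had a q of 0.01 or less, 6.25% (3.37 to 10.5), against 120 of the 592 other peaks, 20.3% (17.1 to 23.7). In 16 clusters no peak had such a q, and in 22 the median was 4 or fewer fragments. Of the 85 peaks in pseudogenes, 2 were clustered and 83 were not.

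The largest cluster was pericentromeric. It held 44 peaks over 2192 kb of chromosome 2 (92338612 to 94530430), and 37 of them lay in the longest stretch of that chromosome without a gene of the table, 92035128 to 94192530. In the hg38 build this stretch holds the centromere, which the assembly fills with modelled arrays of alpha satellite, a tandem repeat. No summit in the cluster lay in a gene, and the start sites named were those of BMS1P23, ACTR3BP6 and LOC100133920. Fragments ran from 2 to 8 with a median of 3, folds from 1.70 to 5.22, and 25 of the 44 peaks stood at the lowest background of 0.533. The highest was at 93754019 to 93754412, with 5.22-fold over 7 fragments and a −log10 q of 3.99. Only 3 of the 44 had a q of 0.01 or less. The same span held 16 other listed peaks.

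The cluster on chromosome 8 (61766476 to 62135181) differed in level from the rest. It had 12 peaks over 369 kb, a median of 25 fragments, and 5 peaks at a q of at most 0.01. The other 22 clusters had medians of 3 to 4 fragments. The peaks at 61808243 and at 61808891 lay in LINC02842, with 195 fragments at 2.66-fold and 241 at 1.75-fold. Another in that lncRNA, at 61831678, had 2.04-fold over 29 fragments and did not reach that q. Outside it, the peak at 61977123 to 61977913 had 3.69-fold over 78 fragments, that at 61965725 had 2.31-fold over 35, and that at 62012406 had 2.73-fold over 21. The start site named for 7 of these peaks was that of LINC02155. In 7 of the 12 peaks the number of fragments was 20 or more.

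The other large clusters consisted of weak peaks. On chromosome 9 (31948834 to 32194753), 13 peaks were given to ACO1, the cytosolic aconitase, at 190 to 435 kb from its start site. Of these, 6 lay in the lncRNA LOC124902137, and 1 had a q of 0.01 or less, with 4.35-fold over 8 fragments. On chromosome 6 (141604474 to 142021842), 11 peaks near GJE1 had 3 to 5 fragments each, and 4 lay in the lncRNA LOC105378031. On chromosome 2 (153329429 to 153581109) all 10 peaks lay inside GALNT13, with 2 to 16 fragments. On chromosome 12, 10 peaks (91727553 to 91865983) lay in no gene, at 276 to 414 kb from LINC01619, and 7 of 8 peaks at 16405489 to 16662265 lay in MGST1.

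Clusters of 8 peaks also lay on chromosomes 2 (193508554 to 193908904, near PCGEM1), 5 (85640594 to 85828337, near NBPF22P), 7 (145810757 to 146084997, near CNTNAP2), 16 (7925985 to 8274826) and X (95971536 to 96489614). Their medians were 3 fragments each. The clusters on chromosomes 5 and 16 had 1 peak each with a q of 0.01 or less, with 4.17-fold over 6 fragments and 4.31-fold over 7, and the others had none. Of all 23 clusters, 7 had no summit in any gene of the table.

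**Figure D4:**
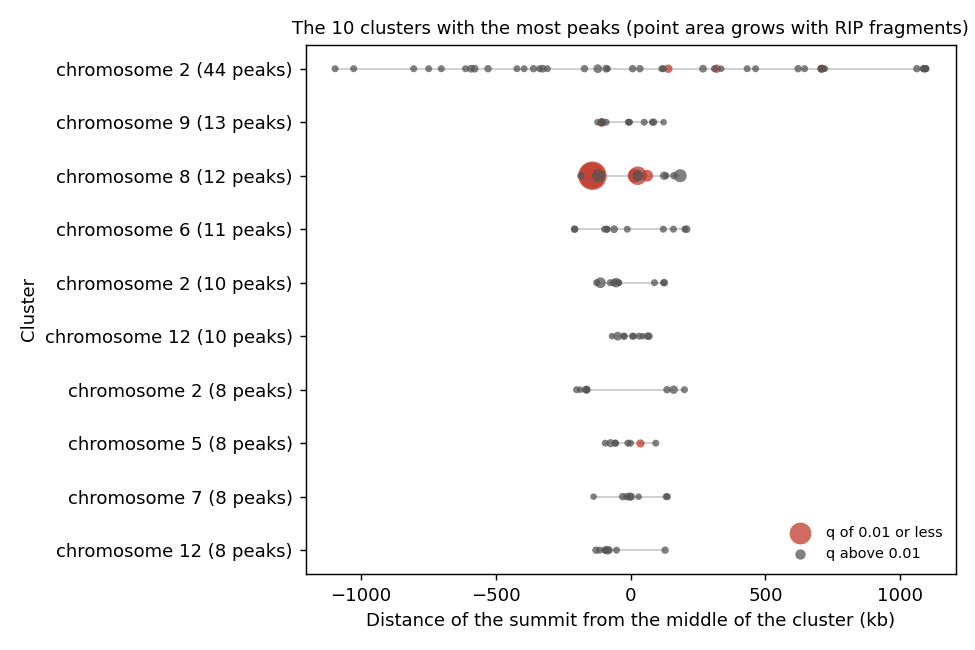
Summits of the far intergenic peaks in the 10 clusters with the most peaks, as distance from the middle of each cluster in kb (horizontal); a larger point has more RIP fragments, and red marks a q of 0.01 or less. The cluster of 44 peaks on chromosome 2 spans 2192 kb with small points throughout, and the cluster of 12 on chromosome 8 holds the large ones.

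No centromere positions were at hand, so the longest gene-free stretch of each chromosome stood in for its centromere. Within 5 Mb of that stretch lay 109 of the 800 peaks, or 13.6% (11.3 to 16.2). The share was 14.1% (11.9 to 16.5) of intergenic peaks within 50 kb and 7.06% of all listed peaks on these chromosomes. Chromosome 2 gave 45 of the 109, and without that chromosome the share was 9.45% (7.36 to 11.9), against 12.2% (10.1 to 14.6) of intergenic peaks within 50 kb and 6.77% of all listed peaks. Inside the stretch itself lay 39 far intergenic peaks, 37 on chromosome 2 and 2 on chromosome 22. In the whole list 56 peaks lay in such stretches, 52 of them on chromosome 2. On chromosomes 13, 14, 15, 21 and 22 the longest stretch runs from the chromosome's first base. It need not hold the centromere there, and peaks near it need not be near the centromere.

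Of the 109 far intergenic peaks within 5 Mb of a stretch, 24 had a q of at most 0.01, or 22% (14.6 to 31.0), against 15.8% (13.1 to 18.7) of the 691 farther away, and these intervals overlap. Chromosome 2 was then left out, a choice made after its values were seen. Without it the share was 21 of 64 peaks, 32.8% (21.6 to 45.7), against 98 of 613 farther away, 16% (13.2 to 19.1). For intergenic peaks within 50 kb the shares without chromosome 2 were 24.3% (16.4 to 33.7) near a stretch and 17.8% (15.1 to 20.7) farther away. All listed peaks had 37.5% near and 37.7% farther away. Of the 64, chromosome 9 had 12, 5 with such a q. They included peaks at 63433578 to 63433989 (4.51-fold over 25 fragments) and at 38194462 to 38194832 (4.81-fold over 30), and one in the transcribed pseudogene LOC100132154 (2.52-fold over 34). On chromosome 22, the neighbouring peaks at 10680294 and 10681403 had 4.31-fold over 7 fragments and 5.95-fold over 9. On chromosome 16 the peak at 33987711 to 33988083 had 6.25-fold over 18 fragments, and on chromosome 1 that at 144072042 to 144072807 had 3.88-fold over 22. The 21 also included peaks in the pseudogenes RAC1P2, NAMPTP1, FTH1P7, MTRNR2L12, PSPHP1, LOC110467538, LOC110467535 and LOC110467534. Of all 85 far intergenic peaks in pseudogenes, 55.3% had such a q. The shares near a stretch and farther away were not split by pseudogene, so proximity and pseudogenes cannot be told apart in them. Pericentromeric regions are rich in segmental duplications, large blocks copied within the genome, in which reads of 1 copy cannot always be told from those of another. The part of such copies in these peaks was not tested.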

How the data were processed

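The labels give 2 YTHDF2 RIP and 2 input libraries of HCCLM3 cells, from strand-preserving preparations. Per the submitters' processing notes, HISAT2, MACS2 and the hg38 build were used. Their versions, their options and the way the libraries were combined were not stated there. Per the file headers, the deposited list gives for each peak its position, a fold (a ratio of RIP to background), −log10 p and −log10 q, a score, an annotation and the nearest start site. All are the authors' values. The score was not used.

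RIP fragments k and background b were solved from fold = (k + 1) / (b + 1) and the Poisson p above k. Every p was met within 0.000189. The solving step was tested on data simulated with the same formulas, so that test does not show how the deposited values were made. A RefSeq gene table (GRCh38.p14) named 799 of the 800 gene numbers. Its 679 genes on other contigs were left out. A summit in several spans was given to a pseudogene before an lncRNA and that before a protein-coding gene. The members, lists and thresholds were chosen with earlier results of these data known. Named peaks were the 10 highest by −log10 q, the 10 highest by fold at a q of 0.01 or less, the 10 largest clusters, and the 4 highest pseudogene and lncRNA peaks. Peaks named beyond these, and the 3 sequences, were chosen after their values were seen. Sequences are from RefSeq; no genome was used, so sequences of other peaks are not shown. Python 3.11.15 with pandas 2.3.3 and scipy 1.17.1 was used.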

Additional observations from a re-analysis of the deposited data

How the results depend on the processing

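No paired analysis was possible because the list holds no value per library, and for the same reason no replicate could be left out. Of 34 alternatives, 5 left the value within its interval or within 1.5 times: a distance above 100 kb for the share with a q of 0.01 or less, the median fold and the median fragments, and cluster gaps of 100 kb and 1 Mb for the number of clusters. The other 29 moved it, in part because a stricter limit keeps fewer peaks. The 800 peaks became 487 above 100 kb, 265 above 200 kb, 176 at a q of 0.05 or less, 133 at 0.01 or less and 71 at a −log10 q of 5 or more. The 16.6% with a q of 0.01 or less became 22% at a q of 0.05 or less, 8.88% at a −log10 q of 5 or more and 52.2% among peaks with 5 or more fragments. The median fold of 2.61 became 3.91 at a q of 0.05 or less, 4.17 at 0.01 or less and 3.57 with 5 or more fragments. The median of 3 fragments became 13 and 18 at those q limits.

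The 23 clusters became 67 with 3 or more peaks, 6 with 10 or more, 2 at a q of 0.05 or less and 1 at 0.01 or less. The last lay on chromosome 8 (61808243 to 62013237). The 26% of peaks in clusters became 17.3% (17.25) and 30.8% (30.75) at gaps of 100 kb and 1 Mb, 43.3% (43.25) and 12.5% with 3 and 10 or more peaks, and 9.09% and 3.76% at the q limits of 0.05 and 0.01. The 13.6% near a gene-free stretch became 8.13% (8.125) within 2 Mb, 18.6% within 10 Mb and 18% at a q of 0.01 or less. The 41.3% (41.25) inside a gene became 45.3% (45.25) for any base, 35.8% (35.75) for the whole peak and 54.1% at a q of 0.01 or less. With 4 or fewer fragments behind 68.1% of the peaks, fragment number limits any single one of them.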
